A study of Mus musculus with 5 samples.

Results

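The genes described here were the NF-kB family and its inhibitors, 10 of the 21938 protein-coding genes of the GRCm38 mouse annotation. They were the 5 subunit genes Nfkb1, Nfkb2, Rel, Rela and Relb, the 4 IkB inhibitor genes Nfkbia, Nfkbib, Nfkbid and Nfkbie, and Tnfaip3, which encodes a ubiquitin-editing inhibitor of the pathway. The genes were chosen by name, and a peak of acetylated histone was assigned to a gene where it overlapped the gene body or the 10 kb on either side by at least 1 bp. Across 5 ChIPseq libraries, 45 peaks met this rule. The libraries came from mouse CD8+ T cells differentiated in vitro into memory (TM) cells with IL-15, 2 from WT and 3 from TPdh-/- mice. The study describes equal numbers of libraries per genotype, and any beyond these 5 were not analysed here. In TPdh-/- mice, Pdha1, which encodes a subunit of the pyruvate dehydrogenase complex, is deleted by a Cre recombinase under the CD4 promoter, so that the deletion is made in T cells during their development. The comparison asked whether TM cells without this complex, a source of acetyl-CoA, carry histone acetylation at fewer or other places. Lysine 18 is named in the labels and acetyl-lysine in general in the study's methods, so no residue is named for the peaks.

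NF-kB proteins are transcription factors that bind DNA as dimers and are held in the cytoplasm by IkB proteins until a signal leads to IkB degradation. In T cells the signal comes from the antigen receptor, from costimulatory receptors and from receptors of the tumour necrosis factor family, and the factors then act on genes of survival, proliferation and cytokine production. Several inhibitor genes, Nfkbia and Tnfaip3 among them, are themselves induced by NF-kB and form a negative feedback loop. Acetylation of histones marks promoters and enhancers in use.

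To show the DNA that lies under these peaks, the kB consensus, the sequence that NF-kB dimers bind, was searched on both strands of RefSeq promoter windows of 300 bases, from 250 bases before to 50 bases after each start. Overlapping matches were counted as 1 site. The windows are those of GRCm38.p6, and 13 windows of 8 of the 10 genes were matched, all but those of Nfkb1 and Relb. A match was found in 8 of the 13 windows, against 4.97% of 20150 windows of protein-coding genes. Overlapping windows of Nfkb2 shared a match, which counts in each of them. By gene a match was found in 6 of the 8 (75.0%), against 946 of 16522 protein-coding genes with a window (5.73%). The 8 genes had 13 windows and the 16522 genes 20150, and more windows per gene give more room for a match. Among other genes of the pathway a match was found in 15 of 48 (31.3%), and their list includes known target genes of NF-kB. The 13 windows were also richer in G and C, with medians of 61% GC and 20 CpG against 57% and 14 for protein-coding genes. The part of this base content in the matches was not tested. A match describes the letters and is not evidence of binding. The windows of Rela and Nfkbib held none. The matches at Nfkb2, Rel and Tnfaip3 are shown first because a peak lay over at least part of them in every library, except for the last Nfkb2 stretch, which was covered in WT 1, WT 2 and TPdh-/- 3 alone. Each stretch reads 5′ to 3′ along the strand of the gene, and capitals mark the match.
Nfkb2 chr19:46304688-46304717 (+): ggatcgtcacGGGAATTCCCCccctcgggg
Nfkb2 chr19:46304716-46304745 (+): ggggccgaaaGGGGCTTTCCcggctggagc
Nfkb2 chr19:46305445-46305493 (+): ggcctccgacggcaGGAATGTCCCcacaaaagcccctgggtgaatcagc
Nfkb2 chr19:46305695-46305724 (+): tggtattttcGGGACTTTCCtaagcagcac
Rel chr11:23771026-23771086 (-): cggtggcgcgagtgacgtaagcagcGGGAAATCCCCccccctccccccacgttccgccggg
Tnfaip3 chr10:19015501-19015547 (-): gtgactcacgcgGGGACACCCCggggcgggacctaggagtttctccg
Tnfaip3 chr10:19015411-19015447 (-): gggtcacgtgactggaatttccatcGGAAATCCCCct

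The matches at the inhibitor genes Nfkbia, Nfkbid and Nfkbie are shown because they lay outside the peaks of most libraries. The Nfkbia match was covered in WT 1 alone, and no library had a peak over the matches of Nfkbid or Nfkbie.
Nfkbia chr12:55492648-55492701 (-): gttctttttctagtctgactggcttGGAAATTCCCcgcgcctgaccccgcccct
Nfkbid chr7:30422156-30422214 (+): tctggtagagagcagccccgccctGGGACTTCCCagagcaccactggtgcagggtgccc
Nfkbid chr7:30422200-30422259 (+): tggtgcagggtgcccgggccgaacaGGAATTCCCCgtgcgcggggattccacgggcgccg
Nfkbie chr17:45555569-45555628 (+): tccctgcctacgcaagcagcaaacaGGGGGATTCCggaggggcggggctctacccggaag

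The peak lists differed in length before any gene was considered. WT 1 had 15962 peaks and WT 2 had 8859, and TPdh-/- 1, 2 and 3 had 4920, 5419 and 9418, so that WT 1 stood apart and TPdh-/- 3 had more peaks than WT 2. The study's methods state a minimum depth of sequencing but not that of each library, which the lists do not hold either, and a place without a peak can carry signal below the authors' threshold. In bulk chromatin, fewer cells with the mark and less of the mark per cell cannot be told apart. Of 12 T cell genes that include Cd8a and Cd8b1, a promoter peak was called at 12, 9, 5, 7 and 9 in WT 1, WT 2 and TPdh-/- 1, 2 and 3, and at Cd8b1, Lck, Lat and Zap70 in every library. Of 6 B cell genes 1 had a promoter peak in WT 1 and none elsewhere, none of 3 NK cell genes or 4 liver and neuron genes had one in any library, and of 6 myeloid genes only Spi1 had one, in all 5 libraries. Of Cd4 and Zbtb7b, genes of CD4 T cells, 2 had a promoter peak in WT 1, 1 in WT 2 and 0 in TPdh-/-. The part of other cells in the results was not tested. The deleted gene, Pdha1, had a promoter peak in WT 1 alone, and the lists cannot show its deletion.

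The NF-kB genes carried promoter peaks in every library, but the number of genes ranged more widely within each genotype than the group means differed. The SD between libraries of a group, 2.48 genes, was close to the difference in means of 2.5. A promoter peak, within 3000 bp of any annotated transcript start of the gene, was called at all 10 genes in WT 1, 7 in WT 2, and 5, 4 and 9 in TPdh-/- 1, 2 and 3. The groups overlapped, with TPdh-/- 3 above WT 2, and the WT mean was 8.5 ± 2.12 genes (SD, n = 2) against 6 ± 2.65 (SD, n = 3) for TPdh-/-. Over all protein-coding genes, a promoter peak was called at 42.1% in WT 1, 24.8% in WT 2, and 15.3%, 16.5% and 27.9% in TPdh-/- 1, 2 and 3. The libraries thus had the same order for the NF-kB genes as for all genes except that TPdh-/- 1 and 2 changed places. The same numbers of NF-kB genes had a peak anywhere in the gene body or the 10 kb flanks, where the shares of all genes were 54.0%, 36.4%, 23.2%, 24.7% and 39.2%. With promoters of 1000 bp, the numbers were 9 and 5 in WT and 5, 4 and 7 in TPdh-/- 1, 2 and 3. The shares of all genes were not counted for that distance.

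Nfkb2, Rel, Rela and Tnfaip3 had a promoter peak in all 5 libraries, as did 10.9% of all protein-coding genes. Relb and Nfkbid had one in WT 1, WT 2 and TPdh-/- 3 alone, a pattern of 4.81% of all genes. Nfkb1 and Nfkbib had one in WT 1 and TPdh-/- 3 alone, as did 3.96% of all genes, and Nfkbia had one in WT 1 alone, as did 11.2%. Nfkbie had a peak in every library but TPdh-/- 2, a pattern whose share of all genes was not counted. A promoter peak called in each WT library but in none of TPdh-/-, as at 2.21% of all genes, was found at 0 of the 10 genes. Likewise, 0 of the 10 lacked one in every library, as 56.7% of all genes did. For Nfkbid this rests on peaks that lay before the gene and covered the start of its neighbour Hcst.

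**Figure D1:**
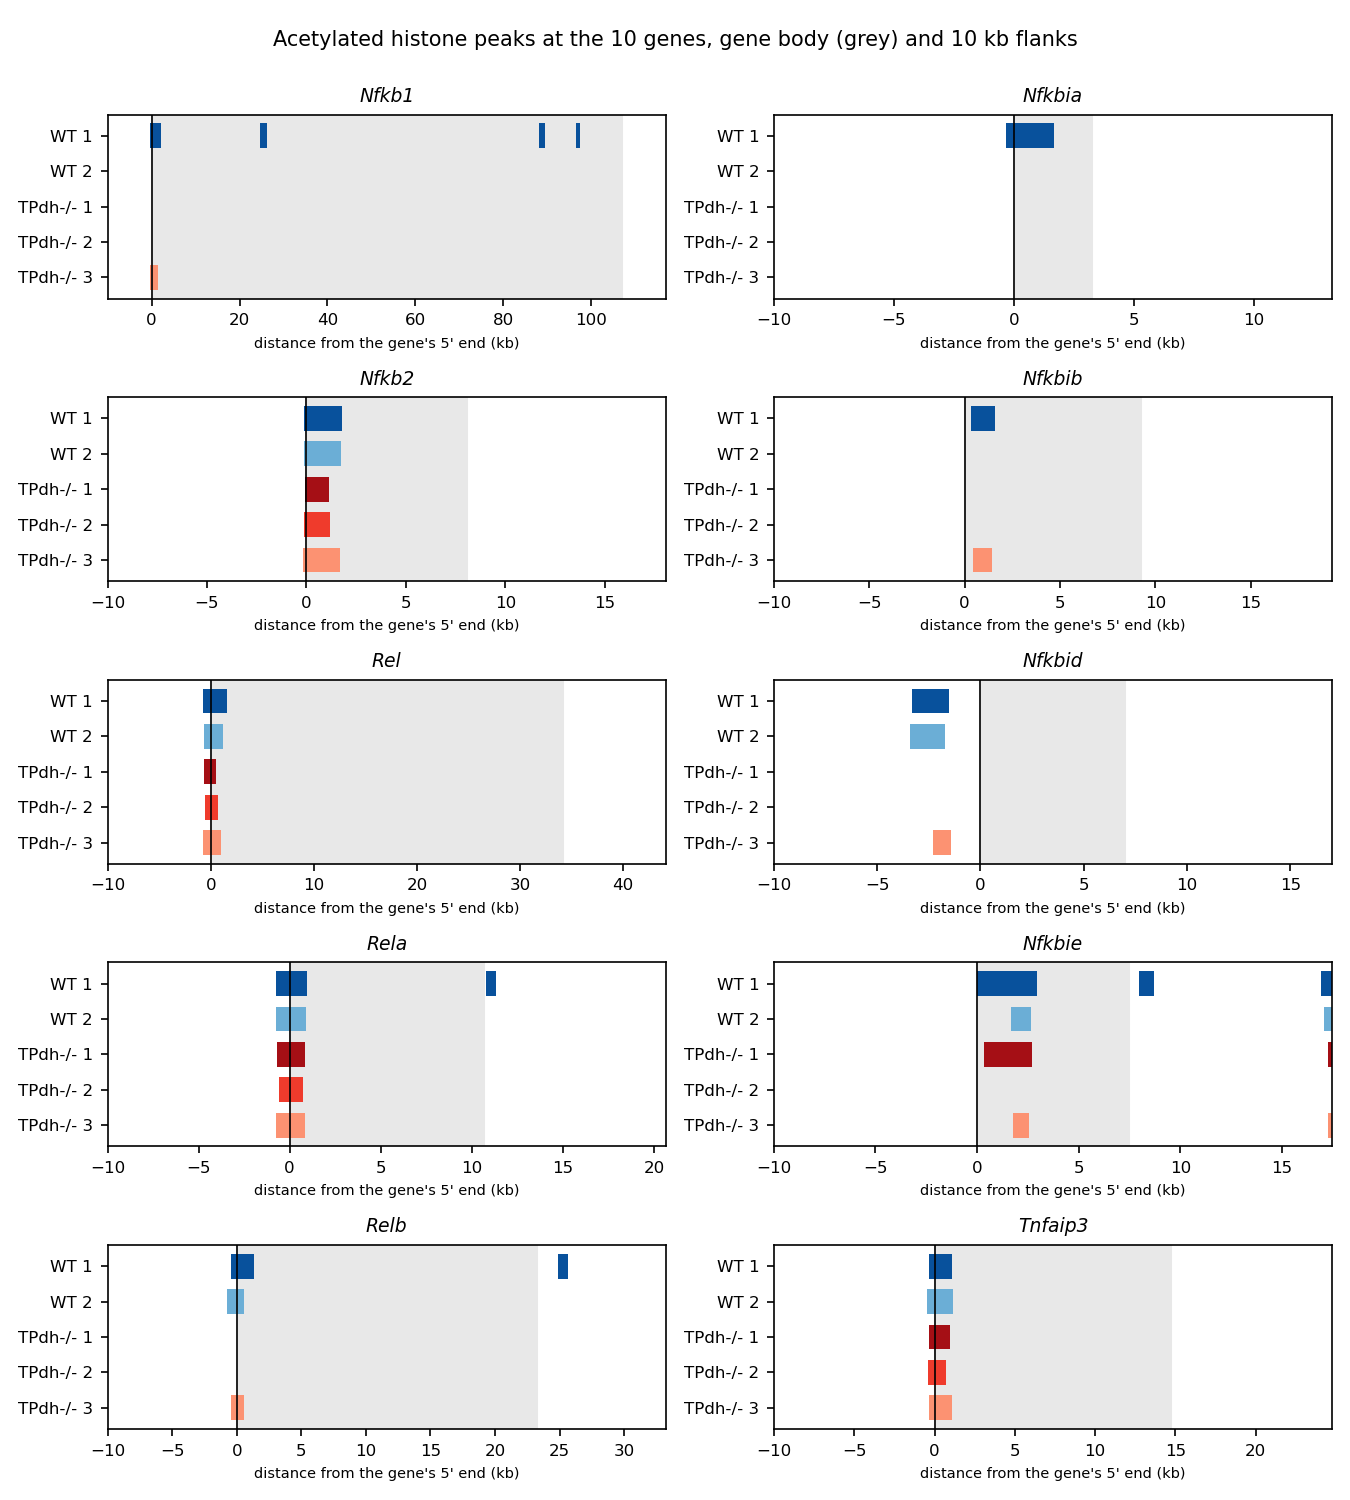
Position of every assigned peak (coloured bars) in each of the 5 libraries, as distance in kb from the gene's 5′ end along its strand, with the gene body in grey and 10 kb flanks in white. Nfkb2, Rel, Rela and Tnfaip3 have a bar at the 5′ end in all 5 libraries, while the bars of Nfkbid lie before the gene and Nfkbie has further bars beyond its 3′ end.

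With lists of equal length, WT libraries no longer had peaks at more of the genes. When each list was reduced to its 4920 strongest peaks by −log10 q, the number in the shortest list, a promoter peak was found at 4, 4, 5, 4 and 5 of the 10 genes in WT 1, WT 2 and TPdh-/- 1, 2 and 3. The corresponding shares of all protein-coding genes were 19.9%, 17.1%, 15.3%, 15.8% and 18.7%. Nfkb2, Rela and Tnfaip3 were found in all 5 reduced lists, Rel in all but that of WT 2, Nfkbie in WT 2 and TPdh-/- 1, and Relb in TPdh-/- 3. The difference in group means was −0.667 genes with lists of equal length, against 2.5 with the full lists.

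**Figure D2:**
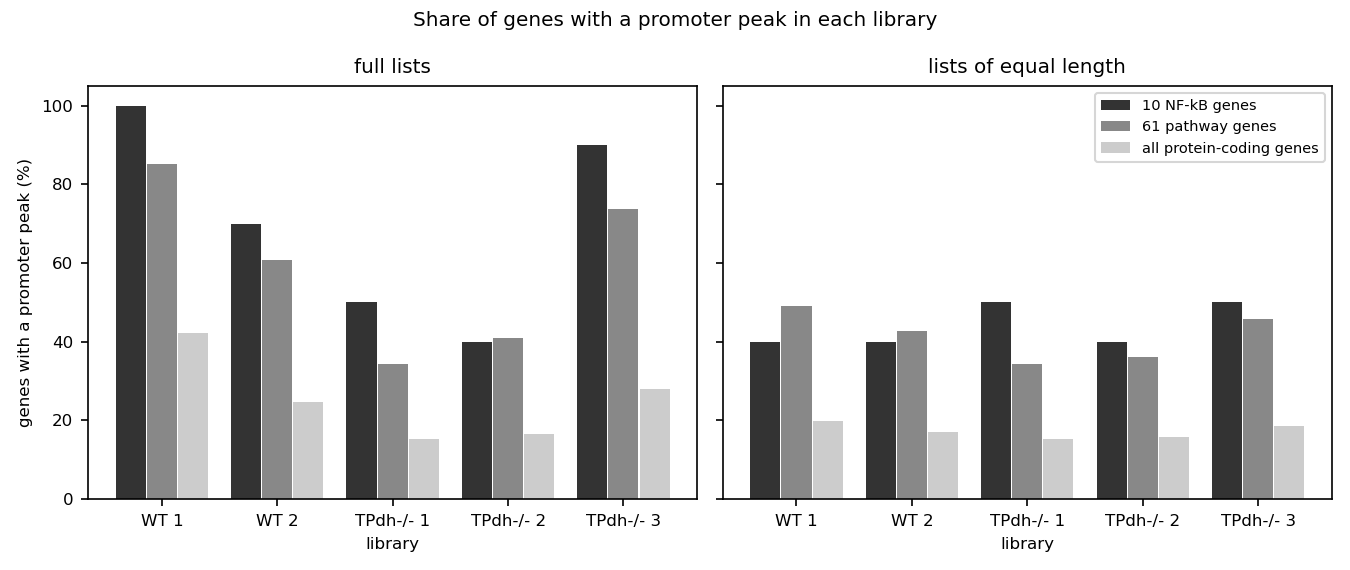
Share of genes (%) with a promoter peak in each library for the 10 NF-kB genes, 61 other genes of the pathway and all protein-coding genes, with the full lists (left) and with lists of 4920 peaks (right). The NF-kB bars run from 40% to 100% on the left and from 40% to 50% on the right, and lie above those of all protein-coding genes in every library.

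Among the subunit genes, Rela, Rel and Nfkb2 had a promoter peak in every library. Rela (chr19:5637483-5648130, + strand) encodes the transactivating subunit of the most common NF-kB dimer, and its promoter peak covered the gene's 5′ end in all libraries. The WT peaks at the Rela promoter were 1694 and 1639 bp wide, and those of TPdh-/- 1, 2 and 3 were 1551, 1280 and 1607 bp wide. Its fold enrichment over the background estimated by the peak caller was 3.02 and 2.69 in WT and 2.79, 2.65 and 3.21 in TPdh-/-. It ranked 2563 and 4484 among WT peaks and 3007, 2466 and 1317 among TPdh-/- peaks. As a percentile of the list, where 100 is the strongest peak, this was 83.9 and 49.4 in WT and 38.9, 54.5 and 86.0 in TPdh-/-. Both WT peaks were wider than all TPdh-/- peaks, 1667 ± 38.9 bp (SD, n = 2) against 1479 ± 175 bp (SD, n = 3), while fold and percentile overlapped between the groups. Two-sided p-values doubled the smaller tail, so with 2 libraries against 3 an exact permutation test cannot give less than 0.2, which was the value for width (exact permutation, p = 0.2). For the fold, 2.85 ± 0.235 in WT and 2.89 ± 0.292 in TPdh-/-, the exact permutation p was 1. Nothing states that the libraries of a group came from separate mice, so these p-values measure the spread between libraries, which may be technical. A further peak of WT 1, 575 bp wide, lay just past the 3′ end of Rela, at chr19:5648245-5648819, where the nearest coding start was that of Sipa1, 3457 bp away.

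Rel (chr11:23736847-23770970, - strand) encodes c-Rel, a subunit of lymphoid cells that is induced by antigen receptor signals. The WT peaks at the Rel promoter were 2351 and 1849 bp wide, and those of TPdh-/- 1, 2 and 3 were 1169, 1222 and 1725 bp. The 5′ edge of the peak stayed within a narrow range, at −775 and −627 bp from the start for WT and at −664, −534 and −764 bp for TPdh-/-. Its 3′ edge lay 1575 and 1221 bp into the gene for WT and 504, 687 and 960 bp for TPdh-/-. The WT peaks were therefore longer on the side of the gene body. Mean width was 2100 ± 355 bp (SD, n = 2) for WT and 1372 ± 307 bp (SD, n = 3) for TPdh-/-, a difference of 728 bp (exact permutation, two-sided, p = 0.2). The fold went the other way, at 2.23 and 2.02 in WT and 2.47, 2.34 and 2.26 in TPdh-/-, with both WT values below all TPdh-/- values (exact permutation, two-sided, p = 0.2). Of the 2390 genes with a promoter peak in every library, 8.08% had WT folds below all TPdh-/- folds. Rel ranked 3801 and 6508 in WT and 2543, 2607 and 3699 in TPdh-/-. Its percentile was lowest in WT 2, at 26.5, with 76.2 in WT 1 and 48.3, 51.9 and 60.7 in TPdh-/-, so that the WT libraries bracketed the TPdh-/- libraries. The rank of the WT 2 peak was past 4920, so that peak was lost from the reduced list, and the difference in covered length then turned to −196.5 bp (exact permutation, two-sided, p = 0.8). The kB match of Rel, before the start, lay inside the peak of every library.

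Nfkb2 (chr19:46304320-46312385, + strand) encodes a precursor that is processed to the DNA-binding partner of RelB in the non-canonical pathway. The WT peaks at the Nfkb2 promoter were 1890 and 1844 bp wide, and the TPdh-/- peaks 1218, 1307 and 1821 bp. Its 3′ edge was 1780 and 1745 bp into the gene for WT and 1143, 1163 and 1664 bp for TPdh-/-. The TPdh-/- 3 peak was thus close to the WT peaks, and those of TPdh-/- 1 and 2 were shorter on the gene body side. The TPdh-/- 1 peak ended inside the third kB match shown for Nfkb2, and the peaks of TPdh-/- 1 and 2 both ended before the fourth. Its mean width was 1867 ± 32.5 bp (SD, n = 2) for WT and 1449 ± 326 bp (SD, n = 3) for TPdh-/-, a difference of 418 bp (exact permutation, two-sided, p = 0.2). Its fold was 2.75 and 2.67 in WT and 2.74, 2.67 and 2.94 in TPdh-/-, which overlapped (exact permutation, two-sided, p = 0.8). Nfkb2 ranked 3155 and 2658 in WT and 2103, 2973 and 1462 in TPdh-/-, at percentiles of 80.2 and 70.0 and of 57.3, 45.1 and 84.5.

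Relb (chr7:19606217-19629438, - strand) encodes the RelB subunit of the non-canonical pathway. Its promoter peak covered the gene's 5′ end in WT 1 (1761 bp), WT 2 (1360 bp) and TPdh-/- 3 (957 bp), and no peak was called in TPdh-/- 1 or 2. The fold was 2.36 and 2.63 in WT and 2.88 in TPdh-/- 3. The peak ranked 10340 and 5836 in WT and 4129 in TPdh-/- 3, at the 35.2, 34.1 and 56.2 percentile. The narrowest of these peaks was therefore the one with the highest fold and percentile. In WT 1, a second and stronger peak of 764 bp, rank 728 and fold 4.52, lay in the flank beyond the 3′ end, at the start of the neighbouring gene Clasrp.

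Nfkb1 (chr3:135584655-135691547, - strand) encodes the precursor of the usual partner of RelA, and with 106893 bp it was the longest of the 10 genes. WT 1 had 4 peaks at Nfkb1, TPdh-/- 3 had 1, and the other libraries had none. The peak over the gene's 5′ end was 2524 bp wide in WT 1 and 1864 bp in TPdh-/- 3. It was weak in both, with folds of 1.82 and 2.06, ranks 15083 and 8264, and percentiles of 5.51 and 12.3. The other WT 1 peaks lay inside the gene and were 1637, 1234 and 980 bp wide, the first of them at the 48.2 percentile, 944 bp from the start of an internal transcript. A peak within 3000 bp of an internal start counts as a promoter peak here, so the value plotted for Nfkb1 in WT 1 is that of this internal peak.

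Among the inhibitors, Tnfaip3 was the gene with a peak in every library. Tnfaip3 (chr10:19000910-19015657, - strand) had a promoter peak whose width was 1445 and 1560 bp for WT and 1302, 1119 and 1450 bp for TPdh-/-, so the widths overlapped between the groups (exact permutation, two-sided, p = 0.4). Its fold was 2.52 and 2.40 in WT and 2.38, 2.35 and 2.26 in TPdh-/-. Its rank was 1660 and 2280 for WT and 2557, 1745 and 2845 for TPdh-/-, at the 89.6 and 74.3 percentile in WT and the 48.0, 67.8 and 69.8 percentile in TPdh-/-. Both WT values of fold and of percentile were above all TPdh-/- values, while the ranks overlapped, and a percentile rises with the length of its list. The means were 81.9 ± 10.8 (SD, n = 2) and 61.9 ± 12.0 (SD, n = 3) for the percentile and 2.46 ± 0.0852 and 2.33 ± 0.0631 for the fold, each at the smallest two-sided p (exact permutation, p = 0.2). Of the 2390 genes with a promoter peak in all libraries, 26.4% had WT percentiles above all TPdh-/- percentiles and 1.38% had them below, and for the fold 15.8% had WT above. Both kB matches of Tnfaip3 lay under the peak of every library.

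Nfkbie (chr17:45555703-45563169, + strand) encodes IkB-epsilon, which binds dimers of RelA and c-Rel. Its promoter peak was 2923 bp wide in WT 1 and covered an annotated start. In WT 2 the peak was 986 bp wide and 1618 bp from the start, in TPdh-/- 1 it was 2372 bp wide and 315 bp away, and in TPdh-/- 3 it was 787 bp wide and 1716 bp away. All lay inside the gene's 5′ part, and TPdh-/- 2 had none. The fold was 2.14 and 2.35 in WT and 2.22 and 2.17 in TPdh-/- 1 and 3, and the percentile 49.3 and 46.9 against 4.12 and 14.6. The last 10 kb of the window also took in peaks of neighbours, 1 at the start of Slc35b2 in WT 1 and 1 at the start of Hsp90ab1, which encodes a chaperone, in every library but TPdh-/- 2.

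Nfkbia (chr12:55489410-55492647, - strand) encodes IkB-alpha, the inhibitor that is resynthesized after each NF-kB response. It had a single peak, in WT 1, which was 2001 bp wide with a fold of 2.01 at rank 7070 and the 55.7 percentile. The peak covered the start and the kB match, and no other library had a peak within the gene or 10 kb of it.

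Nfkbib (chr7:28758251-28767512, - strand) encodes IkB-beta. Its peak was 1254 bp wide in WT 1 and 1007 bp in TPdh-/- 3, with folds of 3.08 and 2.55, ranks 5962 and 6872 and percentiles of 62.7 and 27.0. Both peaks also covered starts of Sirt2, a deacetylase gene that runs the other way, so they cannot be assigned to Nfkbib alone.

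Nfkbid (chr7:30421732-30428746, + strand) encodes an atypical nuclear IkB protein. The peaks counted for it lay before the gene, 1544 bp from its start in WT 1, 1741 bp in WT 2 and 1442 bp in TPdh-/- 3, and each covered the start of Hcst, a signalling adaptor gene. They were 1779, 1653 and 836 bp wide, had low folds of 1.59, 1.80 and 1.85, and lay at the 5.96, 4.55 and 18.6 percentile. No library had a peak inside Nfkbid or over its kB matches.

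**Figure D3:**
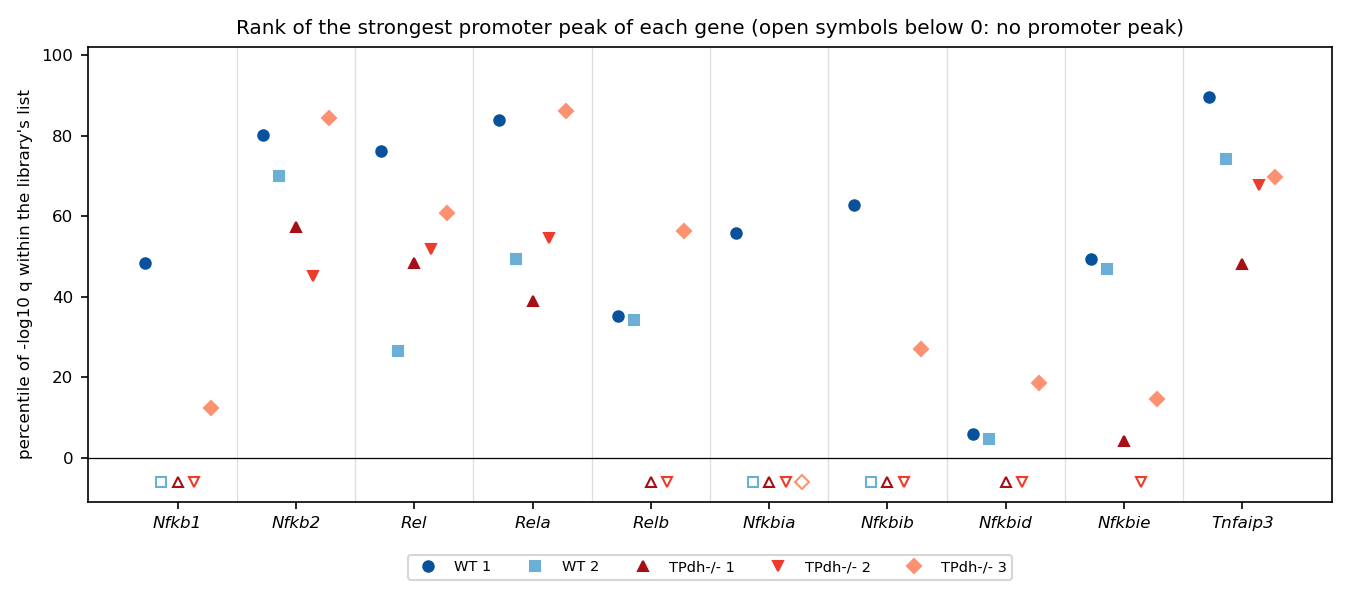
Percentile of the strongest promoter peak of each gene in its library's list, by −log10 q (100 is the strongest), with 1 symbol per library and open symbols below 0 where no promoter peak was called. The 4 genes with a peak in every library lie between 26.5 and 89.6, and Tnfaip3 is the gene of these 4 in which both WT symbols lie above all TPdh-/- symbols.

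The 4 genes with a promoter peak in every library had wider peaks at lower percentiles and folds, by their medians in all 5 libraries, than the 2390 genes of that kind. Their median width was 1792 and 1742 bp for WT and 1260, 1251 and 1666 bp for TPdh-/-, against 1457, 1173, 910, 983 and 1234 bp over the 2390 genes in the same libraries. Their median percentile was 82.1, 59.7, 48.2, 53.2 and 77.1, against 88.9, 79.3, 67.8, 70.9 and 81.6, and their median fold 2.64, 2.53, 2.61, 2.50 and 2.60, against 3.00, 2.95, 2.90, 2.85 and 2.93. Promoter peaks of Nfkb2, Rel and Rela were wider in both WT than in all TPdh-/- libraries, 3 of the 4 genes, a pattern found at 31.3% of the 2390 genes, with the opposite at 0.293%. Ranks and percentiles both move with the length of a list, so neither compares strength between libraries.

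The length covered by peaks, summed over the gene and its flanks, put the groups apart at 5 of the 10 genes. In total it was 26108 bp for WT 1, 11265 bp for WT 2, and 7801, 4928 and 12251 bp for TPdh-/- 1, 2 and 3, so that TPdh-/- 3 was above WT 2. The means were 18687 ± 10496 bp (SD, n = 2) and 8327 ± 3690 bp (SD, n = 3), and WT 1 carried much of the difference of 10360 bp, which was 2938 bp without it. With lists of equal length the difference was 323.5 bp. The number of peaks was 17 and 8 in WT and 6, 4 and 10 in TPdh-/-. Nfkb2, Rel, Rela, Relb and Nfkbid had more covered length in both WT than in any TPdh-/- library, and no gene had less. Among the 12312 protein-coding genes with a peak in any library, 26.0% had more and 0.0569% less. For these 5 genes the exact permutation p was 0.2, the smallest possible. The differences in mean covered length were 418 bp for Nfkb2, 728 bp for Rel, 475 bp for Rela, 1624 bp for Relb and 1437 bp for Nfkbid, where the peaks also covered the Hcst start. Part of the Rela difference came from the WT 1 peak near Sipa1, and it was 187 bp over peaks whose nearest coding start was that of Rela and 160 bp without WT 1. The Relb difference included the WT 1 peak at Clasrp, and it was 772 bp in the gene body alone, 1041 bp without WT 1 and 63 bp with lists of equal length. For Nfkbid it was 0 bp in the gene body alone. The other genes overlapped between the groups, with exact permutation p-values of 0.4 for Nfkbie and Tnfaip3 and 0.8 for Nfkb1, Nfkbia and Nfkbib. Without WT 1, the differences of Nfkb1 and Nfkbib turned to −621 and −336 bp.

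**Figure D4:**
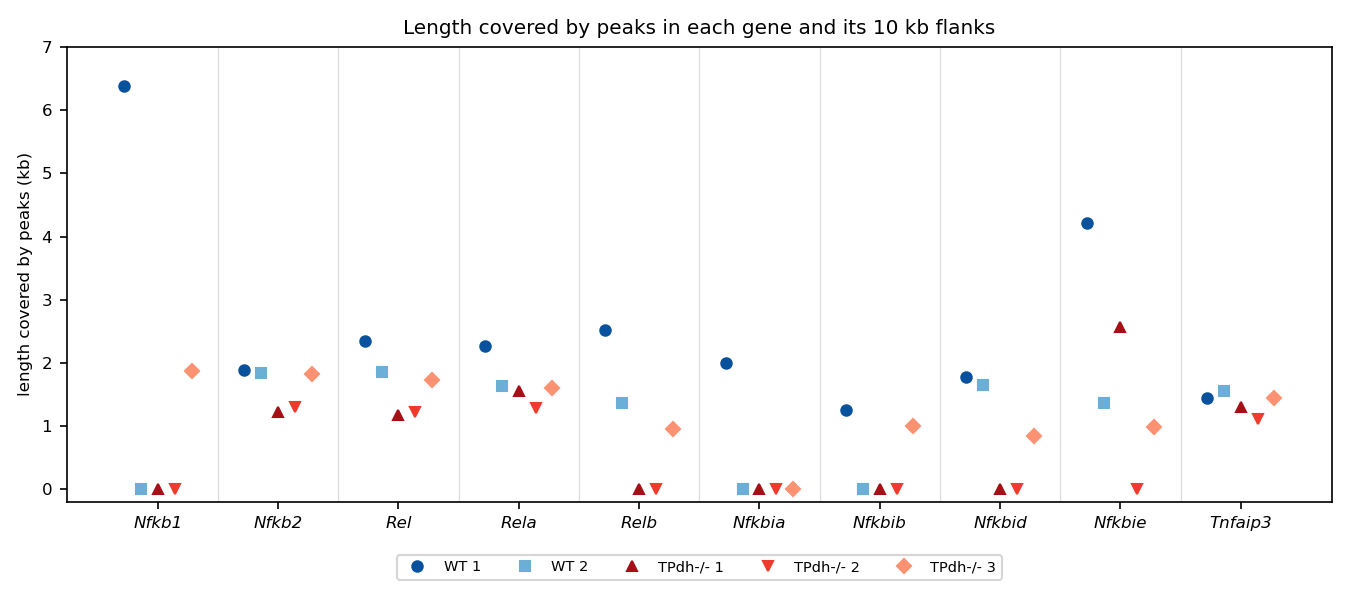
Length in kb covered by peaks in each gene and its 10 kb flanks, with 1 symbol per library and 0 where no peak was called. WT 1 is the highest symbol in every gene except Tnfaip3, and both WT symbols lie above all TPdh-/- symbols in Nfkb2, Rel, Rela, Relb and Nfkbid.

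Promoter peaks were also counted at genes upstream and downstream of NF-kB. Of 61 other pathway genes, a promoter peak was called at 52 in WT 1, 37 in WT 2, and 21, 25 and 45 in TPdh-/- 1, 2 and 3. The shares of all protein-coding genes in the same order were 42.1%, 24.8%, 15.3%, 16.5% and 27.9%, with 10.9% in every library and 56.7% in none. Of the 61, 0 had one in each WT library but in none of TPdh-/-, as at 2.21% of all genes. Likewise, 0 had one in TPdh-/- without WT, for which no share of all genes was counted. With lists of equal length the numbers were 30 and 26 for WT and 21, 22 and 28 for TPdh-/-, and the difference in group means fell from 14.2 to 4.33 genes. Without WT 1 the difference with the full lists was 6.67 genes. Of 11 receptor genes, 6, 2, 0, 0 and 5 had a promoter peak, and Tnfrsf1b, Tnfrsf4, Cd40, Ltbr and Il1r1 had none in any library. Of 23 genes of kinases and adaptors, which carry the signal from the receptors to IkB, 22, 18, 13, 12 and 21 had one. Chuk, which encodes an IkB kinase, Map3k7, Bcl10, Malt1, Traf1, Birc2, Birc3, Rnf31, Rbck1 and Sharpin had one in every library, and Traf3, an adaptor that restrains the non-canonical pathway, had none. Of 13 genes of other inhibitors and IkB-like proteins, 12, 7, 4, 7 and 10 had one, with Bcl3, Nfkbiz and Tax1bp1 in every library and Otulin in none. Of 14 known target genes, 12, 10, 4, 6 and 9 had one, with Cflar, an inhibitor of caspase activation, in every library and the cytokine genes Tnf and Lta in none.

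Bcl3, Cflar and Nfkbiz are given as examples of the pathway genes with a peak in every library, named after their values were seen. The peaks of TPdh-/- 1 and 2 were the narrowest at Bcl3 and Cflar, but not at Nfkbiz, where TPdh-/- 2 was wider than TPdh-/- 3. Narrower peaks were not particular to these genes, since the median width over the 2390 genes was also lowest in TPdh-/- 1 and 2. Bcl3, an IkB-like coactivator gene, had WT peaks of 2063 and 1542 bp and TPdh-/- peaks of 601, 606 and 920 bp. For Cflar, the WT peaks were 2394 and 2472 bp wide and the TPdh-/- peaks 659, 879 and 2150 bp. Its percentile did not follow its width, at 70.8 and 63.6 in WT and 83.1, 80.8 and 72.8 in TPdh-/-. Nfkbiz, another IkB-like gene, had narrow and strong peaks of 1129 and 892 bp for WT and 601, 887 and 835 bp for TPdh-/-, at percentiles of 95.3, 86.8, 74.8, 94.5 and 88.4.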

How the data were processed

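Acetylated histones of 5 TM libraries were immunoprecipitated and sequenced. The authors aligned reads to GRCm38/mm10 with BWA 0.7.17, kept uniquely mapping reads outside blacklisted regions with SAMtools 1.15.1, and called broad peaks with MACS2 2.2.6 for each library. No input control is named. The deposited lists give a linear fold ratio over the background of MACS2 and −log10 p and q values. The authors' DiffBind comparison, which takes reads, was not run.

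Peaks were assigned to genes of GENCODE M21 in Python 3.11.15 (scipy 1.17.1, pandas 2.3.3, numpy 2.4.6), checked against bedtools 2.31.1 and tested on simulated lists. Promoters were within 3000 bp of a start. Peaks were ranked within a list by −log10 q, and the percentile is the percent of its peaks that rank lower. Groups were compared per gene by a two-sided exact permutation test of the mean, with p double the smaller tail. Alternatives were minimum −log10 q values of 2 and 5, equal lists, a width of at least 1000 bp, promoters of 1000 bp, the gene body or 3 kb flanks, nearest coding starts, peak midpoints, other ranking measures, a replicate block and leaving out each library. All 10 genes are named, and further pathway genes where every library or no library had a promoter peak. The genes and lists were chosen with earlier results of these data known. Promoter sequences are from RefSeq (GRCm38.p6).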

Additional observations from a re-analysis of the deposited data

How the results depend on the processing

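Values are WT minus TPdh-/-. The difference in genes with a promoter peak was 2.5 and became −0.667 with lists of equal length, and leaving out 1 library gave 1 to 4. That in peaks at the 10 genes was 5.83, −0.5 with equal lists, and 1.33 without WT 1 to 10.3 without WT 2. That in covered length was 10360 bp, 323.5 bp with equal lists, and 2938 bp without WT 1 to 17781 bp without WT 2. That in the median rank of the genes with a peak in all lists was 802 places, in lists of unequal length. It was 1747 ranked by fold, and 446 without WT 2 to 1158 without WT 1. With equal lists it was 449, over Nfkb2, Rela and Tnfaip3 alone, since Rel lost its WT 2 peak. The cut leaves the ranks of the kept peaks as they were, so the change came from the loss of Rel. The 5 genes with more covered length in both WT than in every TPdh-/- library became 2 with equal lists. Their number was 0 at a −log10 q of at least 5, and 5 to 9 when a library was left out, with 9 without WT 2. A rule over fewer libraries is easier to meet for any gene. Without WT 2 it asks only that WT 1, the longest list, lie above TPdh-/-. The share of all genes was not counted under these settings, so these counts cannot be read as particular to the 10 genes. The 2 genes that remained with equal lists were Nfkb2, with a difference of 418 bp, and Rela, with 187 bp. Covered length reversed for Rel (−196.5 bp) and Nfkbie (−361 bp) with equal lists, and without WT 1 for Nfkb1 (−621 bp) and Nfkbib (−336 bp), where leaving out WT 2 gave 5754 and 918 bp. For 11 other values of single genes the difference fell to 0 bp. Equal lists hold fewer of the weaker peaks of the longer lists by construction, and the other causes were not tested. The difference of 14.2 pathway genes was 4.33 with equal lists, 6.67 without WT 1, 21.7 without WT 2 and 21.5 without TPdh-/- 3. The SD between libraries of a group was 12.2 genes, which lies below 14.2, 21.5 and 21.7 and above 4.33 and 6.67.

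No source says that the shared numbers 1 and 2 pair the libraries. Under the replicate block, for which TPdh-/- 3 has no partner, the differences were 4 genes with a promoter peak, 7.5 peaks, 12322 bp, 672 places and 21.5 pathway genes. By construction these are the values without TPdh-/- 3, so the block adds no separate result. The median rank had no value at a −log10 q of at least 5, where no gene kept a peak in all 5 lists. The read depth of each library is unknown, so a missing peak cannot be told from a peak below the threshold.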
